A study of Mus musculus with 6 samples.

Results

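Complement components and complement receptors were followed in RNA from splenic CD4+ T cells of obese and lean mice. The genes were C1qa, C1qb, C1qc, C4b, C3, Cfp, C3ar1, C5ar1 and Cr2, 9 of the 22899 genes listed for each library, matched by symbol. They were selected on the FPKM values of obese and lean libraries, by hand and with the outcome known, so their difference between the groups is described here and not tested. The obese mice were C57BL/6 on a high fat diet with 60 kcal% fat (3 libraries). The lean mice were C57BL/6 on a normal diet (3 libraries). Feeding began at 6 to 8 weeks of age and lasted up to 4 months, and the CD4+ T cells, the lymphocytes that help other immune cells, were sorted from the spleen by flow cytometry. The sources used here give neither the gates of the sort nor whether each library came from 1 mouse, so the spread between libraries may be technical.

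Complement is a set of serum and membrane proteins that marks particles for uptake and calls in inflammatory cells. The classical pathway opens when C1q binds an immune complex or a dying cell, and C4 and C2 then build the enzyme that cleaves C3, the component on which all pathways meet. Properdin (Cfp) stabilises the C3-cleaving enzyme of the alternative pathway, and the fragments of C3 and C5 act on the receptors encoded by C3ar1, C5ar1 and Cr2. Most complement proteins of plasma come from the liver, but C1q is made mainly by macrophages and dendritic cells, properdin by myeloid cells, and Cr2 is carried by B cells and follicular dendritic cells.

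The values were FPKM, fragments per kilobase of transcript scaled to the library's mapped fragments. This adjusts levels for transcript length and sequencing depth, but a few abundant transcripts can still lower all others in a library. The T cell markers (Cd4, Cd3e and 6 others) summed to 2191 to 2664 FPKM in obese and 2493 to 2773 FPKM in lean libraries, and none of the 8 passed the test between groups. Transcripts of other cell types were present in all 6 libraries. Of 11 monocyte and macrophage markers 9 rose in obese libraries, all 8 red pulp macrophage markers and all 9 erythroid markers found in the files rose, 7 of 12 neutrophil markers fell, and none of 10 B cell markers passed (limma, Benjamini-Hochberg adjusted p under 0.05). The erythroid sum was 4354 to 29020 FPKM in obese and 174 to 474 FPKM in lean libraries. The same test called 622 genes higher and 56 lower among 10788 tested, and 434 higher and 173 lower after median-of-ratios scaling. In such bulk samples, fewer cells of a type and less RNA per cell cannot be told apart. The median log2 difference over all tested genes was 0.10, and −0.03 after the same scaling or quantile normalization. Single genes moved by other amounts than the median did.

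For 7 of the 9 genes, all but C1qa and C4b, RefSeq's table for GRCm38.p6 held the sequence before the start of transcription. The 250 bases upstream of the start site in that table are printed 5′ to 3′ on the gene strand for the 4 of these genes that lay higher in every obese library (C1qb, C1qc, C3 and Cfp) and for Cr2, whose level followed another pattern. Capitals mark matches to the motifs searched. C1qb is read from chr4:136886201-136886450, C1qc from chr4:136892915-136893164, C3 from chr17:57228137-57228386, Cfp from chrX:20931556-20931805 and Cr2 from chr1:195176720-195176969, all on the minus strand. For C1qc and Cr2 that start site lies inside the outer limits of the gene given below, so part of the window falls within them.
C1qb: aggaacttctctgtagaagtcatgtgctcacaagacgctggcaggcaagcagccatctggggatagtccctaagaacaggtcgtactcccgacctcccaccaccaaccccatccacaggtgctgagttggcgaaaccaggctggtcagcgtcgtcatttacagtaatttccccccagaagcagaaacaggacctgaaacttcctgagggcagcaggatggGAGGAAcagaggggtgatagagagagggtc
C1qc: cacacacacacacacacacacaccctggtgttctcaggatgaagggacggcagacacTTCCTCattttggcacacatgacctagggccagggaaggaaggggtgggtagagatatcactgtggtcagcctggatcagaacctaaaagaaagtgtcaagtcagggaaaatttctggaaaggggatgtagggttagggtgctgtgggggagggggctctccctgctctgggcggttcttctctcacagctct
C3: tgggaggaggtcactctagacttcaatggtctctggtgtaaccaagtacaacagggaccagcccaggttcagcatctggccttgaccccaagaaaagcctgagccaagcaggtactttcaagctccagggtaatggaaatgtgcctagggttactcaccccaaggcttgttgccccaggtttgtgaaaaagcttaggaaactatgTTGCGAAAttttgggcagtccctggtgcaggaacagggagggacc
Cfp: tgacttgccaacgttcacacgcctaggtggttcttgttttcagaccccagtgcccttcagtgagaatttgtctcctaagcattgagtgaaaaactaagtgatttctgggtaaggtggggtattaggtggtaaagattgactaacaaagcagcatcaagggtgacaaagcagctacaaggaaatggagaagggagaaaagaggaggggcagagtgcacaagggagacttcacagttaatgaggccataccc
Cr2: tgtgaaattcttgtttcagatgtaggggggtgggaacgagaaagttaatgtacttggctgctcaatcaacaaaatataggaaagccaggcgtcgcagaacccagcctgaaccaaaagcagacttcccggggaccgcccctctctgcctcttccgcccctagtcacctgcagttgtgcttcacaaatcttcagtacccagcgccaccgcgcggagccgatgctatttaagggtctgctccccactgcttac

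Both strands were searched for GAGGAA, the core bound by PU.1 (a transcription factor of myeloid and B cells), and for the core of the interferon-stimulated response element. The other motifs were TTGCNNAA (C/EBP factors), TGCTGAC (MAF factors), CCCNNGGG (EBF factors) and TATAAA (the TATA box). None of these motifs is contained in another. GAGGAA stood at −30 to −25 of the C1qb start site, counted so that the base before the start is −1. Its reverse complement TTCCTC stood at −193 to −188 of C1qc. GAGGAA on either strand is held by 23.3% of the 32851 promoter windows in the table. The C3 window held TTGCGAAA at −45 to −38, a motif found in 9.56% of windows, and C3ar1 had TATAAA at −235 to −230, found in 12.4%. No searched motif was present in these windows of Cfp, C5ar1 or Cr2. The C5ar1 window, chr7:16259339-16259588 on the minus strand, also falls partly within the outer limits of its gene. Only 1 window per gene was searched, so other start sites are not covered. Each match describes the letters and was not tied to a factor or to the values below.

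The 3 chains of C1q, the recognition molecule of the classical pathway, were the most abundant of the 9 transcripts in every library. C1qa stood at 192, 162 and 141 FPKM in obese 1, 2 and 3, against 56.3, 56.0 and 61.3 FPKM in lean 1, 2 and 3. C1qb stood at 186, 162 and 140 FPKM in the obese libraries, against 60.4, 58.1 and 59.0 FPKM in the lean ones. C1qc stood at 204, 174 and 148 FPKM in the obese libraries, against 60.3, 63.9 and 58.2 FPKM in the lean ones. Each chain was therefore higher in every obese library than in any lean one, with obese 1 highest and obese 3 lowest of the obese 3. The obese mean was 2.85-fold the lean mean for C1qa, 2.75-fold for C1qb and 2.89-fold for C1qc, and the differences on the log2(FPKM + 1) scale were 1.48 ± 0.13, 1.44 ± 0.12 and 1.50 ± 0.14 (SE of the group means, n = 3 each). The obese libraries spread more than the lean ones, with coefficients of variation of 14.1% to 16.0% in obese and 1.97% to 5.12% in lean libraries.

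**Figure D1:**
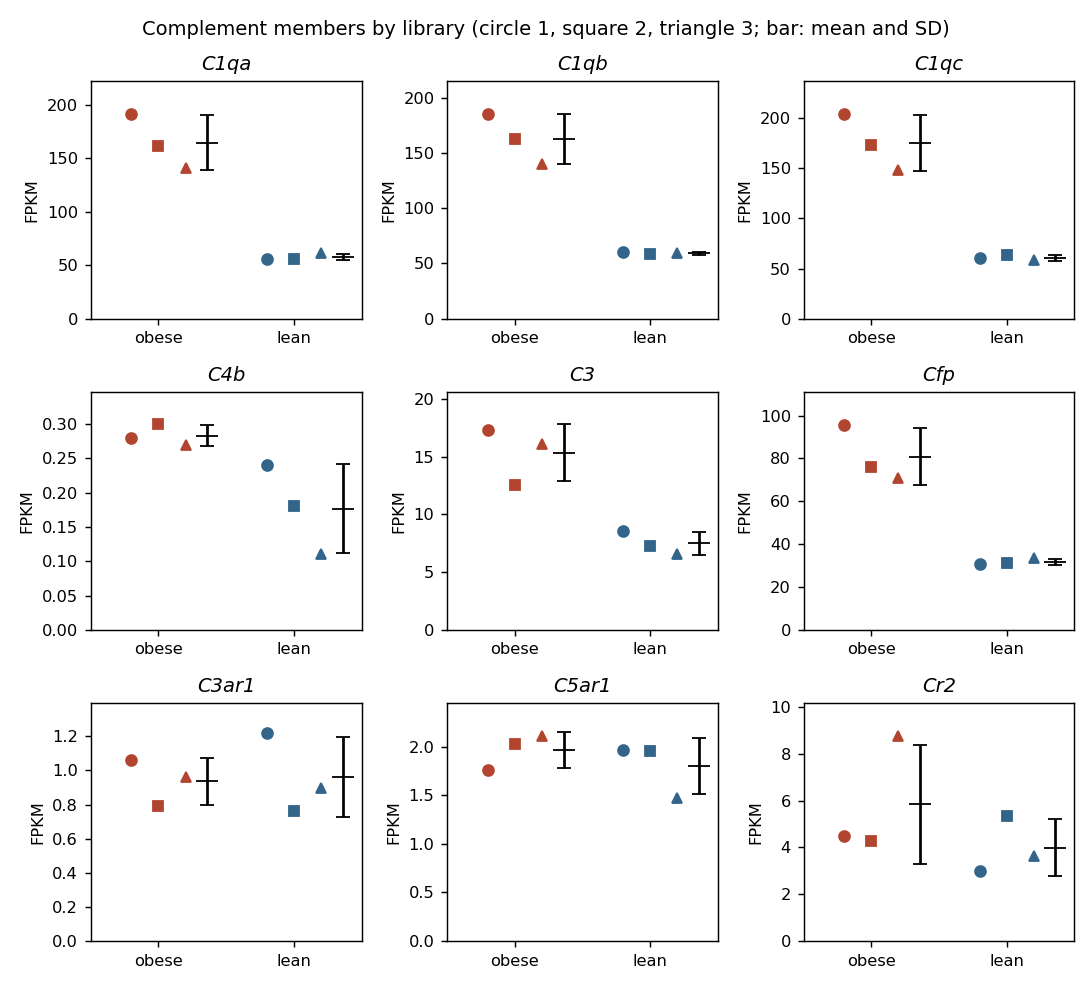
FPKM of each of the 9 complement genes in the 3 obese (left, red) and 3 lean (right, blue) libraries, each panel on its own linear axis from 0; black bars give mean and SD. C1qa, C1qb, C1qc, C4b, C3 and Cfp were higher in all obese than in all lean libraries, whereas the groups overlapped for C3ar1, C5ar1 and Cr2.

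The chains kept nearly equal levels in every library. The ratio of C1qa to C1qb ranged from 0.932 to 1.04 over the 6 libraries and that of C1qc to C1qb from 0.987 to 1.10. A C1q molecule holds equal numbers of the A, B and C chains. Their genes lie next to each other on the minus strand of chromosome 4 (GRCm38, RefSeq), C1qb at 136880126 to 136886200, C1qc at 136889801 to 136892936 and C1qa at 136895916 to 136898844. Among the 3 nearest protein-coding genes on each side, Tex46, Lactbl1, Ephb2, Epha8 and Wnt4 had group means of at most 0.303 FPKM in obese and 0.213 FPKM in lean libraries. Zbtb40, a zinc finger gene on the C1qa side, had 3.29 to 3.60 FPKM in obese and 3.28 to 4.06 FPKM in lean libraries, so its groups overlapped. None of these neighbours reached the level of a C1q gene.

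Between the groups, C1q and the red pulp macrophage markers both lay higher in obese libraries. Within the groups, obese 1 was highest in both, whereas the C1q sum was 498 and 429 FPKM in obese 2 and 3 at nearly the same marker sum and 177 to 178 FPKM in the lean libraries at marker sums of 185 to 222 FPKM. The 8 markers of these iron-recycling macrophages, Spic, Vcam1, Hmox1, Slc40a1, Cd163, Treml4, Cd5l and Axl, summed to 674, 568 and 568 FPKM in obese 1, 2 and 3, against 208, 185 and 222 FPKM in lean 1, 2 and 3. All 8 rose (limma; 5.77% of all tested genes rose), with a median log2 difference of 1.58. For each 1000 FPKM of these markers, C1qb stood at 276, 286 and 247 FPKM in obese libraries, against 291, 313 and 265 FPKM in lean libraries. The corresponding means were 272 ± 21.1 against 283 ± 16.9 for C1qa and 290 ± 24.8 against 299 ± 42.0 for C1qc in obese against lean libraries (SD, n = 3 each). On this relative scale, chosen after the values were seen, the groups overlapped for every chain, and the log2 differences were −0.06 for C1qa, −0.11 for C1qb and −0.04 for C1qc.

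Of the other cells that make C1q, dendritic cells had 6 markers that summed to 11.4 to 16.0 FPKM in obese and 9.42 to 12.1 FPKM in lean libraries, and none of the 4 tested passed. The 4 markers of marginal zone macrophages summed to 20.9, 8.14 and 6.32 FPKM in obese 1, 2 and 3, against 2.39 to 3.57 FPKM in the lean libraries, and 1 of the 2 tested rose.

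A wider list gave another picture. The 11 monocyte and macrophage markers and the 8 red pulp markers together summed to 1900, 1848 and 2104 FPKM in obese 1, 2 and 3, against 1031, 1075 and 986 FPKM in lean 1, 2 and 3. Per 1000 FPKM of this sum, C1qb was 84.0 ± 16.0 FPKM in obese and 57.5 ± 3.05 FPKM in lean libraries (SD, n = 3 each). The log2 difference was 0.53 and the groups did not overlap. Lyz2, a lysozyme shared with neutrophils, and Ly6c2, which lymphocytes carry too, made up 47.2% to 70.1% of the sum. With the geometric mean of the same markers in place of their sum, the log2 difference was 0.17. How far the number of macrophages or their content of C1q RNA accounts for the difference in C1q was not tested.

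**Figure D2:**
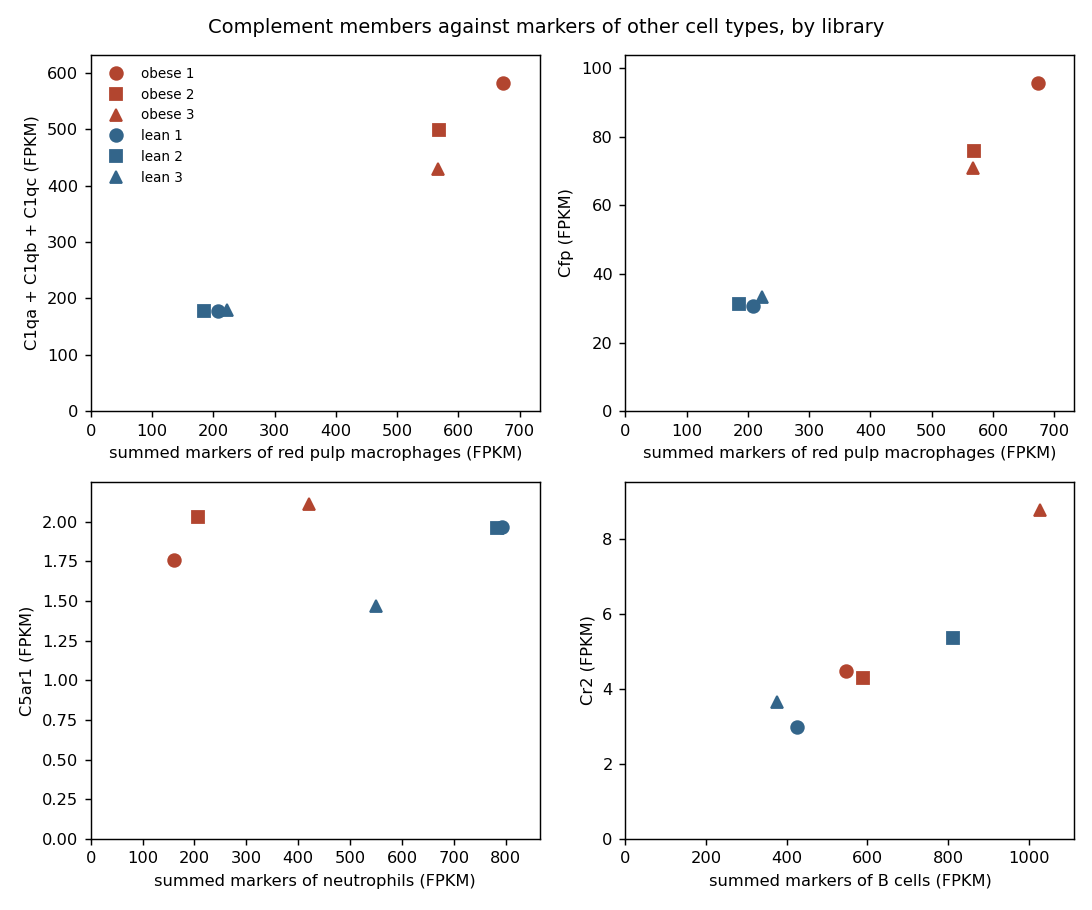
FPKM of the summed C1q chains, Cfp, C5ar1 and Cr2 (vertical axes) against the summed FPKM of markers of another cell type (horizontal axes), 1 point per library, red for obese and blue for lean. The C1q sum was 582, 498 and 429 FPKM in obese 1, 2 and 3 and 177 to 178 FPKM in the lean libraries, and Cr2 was highest in obese 3, which also had the highest B cell marker sum of 1028 FPKM.

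C4b and C3 encode the components cleaved after C1q has bound. C3, whose cleavage is the central step of the cascade, stood at 17.3, 12.6 and 16.1 FPKM in obese 1, 2 and 3, against 8.60, 7.29 and 6.59 FPKM in lean 1, 2 and 3. The 2 groups did not overlap, and the obese mean was 2.05-fold the lean one, with a log2 difference of 0.94 ± 0.16 (SE of the group means, n = 3 each). Relative to 1000 FPKM of red pulp macrophage markers, C3 was 25.4 ± 3.15 FPKM in obese and 36.8 ± 6.28 FPKM in lean libraries (SD, n = 3 each), and every obese library lay below every lean one (log2 difference −0.53). Relative to 1000 FPKM of the 19 macrophage markers it was 7.87 ± 1.17 FPKM in obese and 7.27 ± 0.933 FPKM in lean libraries, which gave a log2 difference of 0.11 with overlap. Relative to 1000 FPKM of B cell markers it was 22.9 ± 8.13 FPKM in obese and 15.6 ± 5.88 FPKM in lean libraries, with overlap. The part of these cell types in the level of C3 was not tested. C3 lies on chromosome 17 at 57203967 to 57228136.

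C4b, the C4 gene of the major histocompatibility complex on chromosome 17 (34728139 to 34743902), was barely present. It stood at 0.28, 0.30 and 0.27 FPKM in obese 1, 2 and 3, against 0.24, 0.18 and 0.11 FPKM in lean 1, 2 and 3. The groups did not overlap (log2 difference 0.13 ± 0.05, SE of the group means, n = 3 each), but C4b stayed under the filter for testing, which asked for 1 FPKM or more in 3 or more libraries. C4a, its near-identical neighbour, can share reads with it, so the split between the copies is uncertain. Summed over C4a and C4b, the level was 0.31, 0.35 and 0.45 FPKM in obese 1, 2 and 3, against 0.34, 0.43 and 0.12 FPKM in lean 1, 2 and 3, and on this sum the groups overlapped.

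Cfp, the gene of properdin on chromosome X (20925454 to 20931555), was the next most abundant after the C1q chains. Properdin is the known positive regulator of complement and is stored in and released by myeloid cells. Cfp stood at 95.8, 75.8 and 70.9 FPKM in obese 1, 2 and 3, against 30.6, 31.1 and 33.3 FPKM in lean 1, 2 and 3. As for C1q, all obese libraries lay above all lean ones and obese 1 was highest. The obese mean was 2.55-fold the lean mean, a log2 difference of 1.31 ± 0.14 (SE of the group means, n = 3 each). Per 1000 FPKM of red pulp macrophage markers, Cfp was 133.5 ± 8.63 FPKM in obese and 155 ± 11.2 FPKM in lean libraries (SD, n = 3 each), without overlap and with the obese libraries lower. Per 1000 FPKM of the 19 macrophage markers the direction was the other, with 41.7 ± 8.38 FPKM in obese and 30.8 ± 2.61 FPKM in lean libraries, a log2 difference of 0.42 with overlap. Neutrophils also express properdin, and their 12 markers summed to 160 to 421 FPKM in obese and 551 to 793 FPKM in lean libraries. The part of macrophages or neutrophils in the level of Cfp was not tested.

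The receptors of the anaphylatoxins, the small fragments of C3 and C5 that draw in and activate myeloid cells, were low in both groups. C3ar1 (chromosome 6, 122847140 to 122856157) stood at 1.06, 0.79 and 0.96 FPKM in obese 1, 2 and 3, against 1.22, 0.76 and 0.90 FPKM in lean 1, 2 and 3. It stayed under the filter, its groups overlapped, and its log2 difference was −0.01 ± 0.12 (SE of the group means, n = 3 each). C5ar1 (chromosome 7, 16246743 to 16259540) stood at 1.76, 2.03 and 2.11 FPKM in obese 1, 2 and 3, against 1.97, 1.96 and 1.47 FPKM in lean 1, 2 and 3. Its groups overlapped too, with a log2 difference of 0.09 ± 0.10 (SE of the group means, n = 3 each), which turned to −0.18 after quantile normalization. Neither receptor followed C1q, Cfp and C3 in lying higher in each obese library.

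Both receptors are carried by neutrophils as well as macrophages, and most markers of these cells went opposite ways. Of the 12 neutrophil markers 7 fell in obese libraries and none rose (0.519% of all tested genes fell). Among the 7, Ly6g stood at 0.37, 0.12 and 0.86 FPKM in obese 1, 2 and 3. It met the filter only through the lean libraries, where it was high, so its call is not independent of the filter. The list's median log2 difference was −1.38. Csf3r and Cxcr2 of this list did not fall, with log2 differences of 0.17 and 0.10 and overlapping groups. S100a8, S100a9 and Ngp had the highest means of the list in both groups and so weigh most in its sum. With the geometric mean of the 12 markers, the log2 difference of C5ar1 per marker was 1.245, against 1.67 with their sum. Among the monocyte and macrophage markers 9 of 11 rose, at a median of 0.97, and 0 fell. Mertk, 1 of the 9, stood at 0.99, 1.08 and 1.68 FPKM in lean 1, 2 and 3 and met the filter only with the obese libraries. Per 1000 FPKM of the neutrophil sum, C5ar1 was 8.60 ± 3.17 FPKM in obese and 2.55 ± 0.102 FPKM in lean libraries (SD, n = 3 each), with the obese libraries higher. Per 1000 FPKM of the 19 macrophage markers, it was 1.01 ± 0.0864 FPKM in obese and 1.74 ± 0.222 FPKM in lean libraries, with the obese libraries lower. C3ar1 was 0.481 ± 0.0685 FPKM in obese and 0.934 ± 0.239 FPKM in lean libraries per 1000 FPKM of the same macrophage markers, again without overlap. The part of either cell type in the levels of these receptors was not tested.

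**Figure D3:**
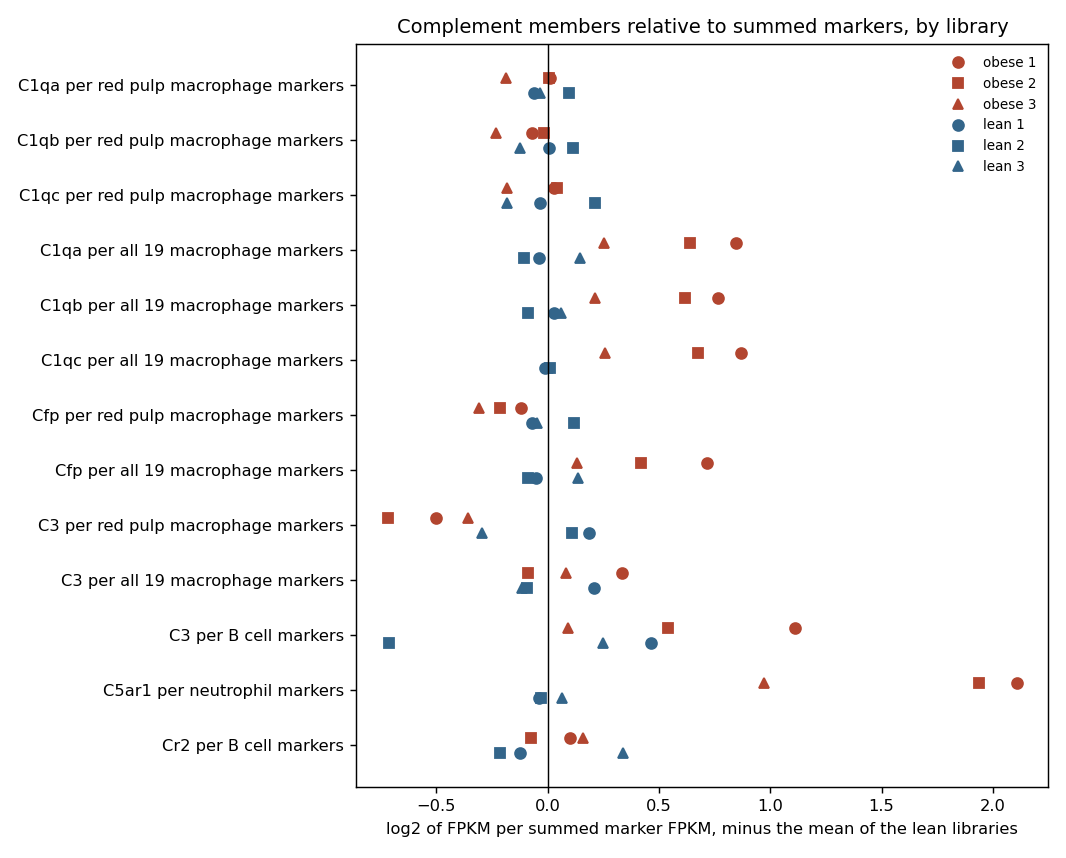
Level of a complement gene per summed marker FPKM in each library, as log2 minus the mean of the lean libraries (vertical line at 0), with obese libraries in red and above lean libraries in blue in each row. The C1q chains overlapped between groups per red pulp macrophage markers, a list chosen after the values were seen (log2 differences of −0.11 to −0.04), but not per the 19 macrophage markers (0.53 to 0.60), while Cr2 per B cell markers overlapped (0.06) and C5ar1 per neutrophil markers was higher in all obese libraries (log2 difference 1.67).

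Cr2 (chromosome 1, 195136811 to 195176880), which in the mouse yields both complement receptors 1 and 2 by alternative splicing, stood at 4.48, 4.28 and 8.77 FPKM in obese 1, 2 and 3. In lean 1, 2 and 3 it stood at 2.98, 5.35 and 3.64 FPKM. Cr2 was highest in obese 3 and next highest in lean 2, and the groups overlapped. Its log2 difference was 0.42 ± 0.35 (SE of the group means, n = 3 each), and 0.14 without obese 3, 0.27 without lean 1 or 0.61 without lean 2. Receptor 2 lowers the threshold of B cell activation by antigen coated with C3 fragments. The 10 B cell markers had the same 2 libraries on top, with sums of 547, 589 and 1028 FPKM in obese 1, 2 and 3, against 425, 813 and 377 FPKM in lean 1, 2 and 3. None of the 10 passed the test. Per 1000 FPKM of these markers, Cr2 was 8.00 ± 0.657 FPKM in obese and 7.75 ± 1.66 FPKM in lean libraries (SD, n = 3 each). Follicular dendritic cells also carry the receptor. Cxcl13 and Madcam1 of the stromal list stood at 0.04 to 0.31 FPKM over the 6 libraries. Of the 9 markers of stromal, follicular dendritic and endothelial cells only Pecam1, which leukocytes carry too, passed the filter, and the sum of the list was 50.2 to 63.2 FPKM in obese and 51.5 to 58.7 FPKM in lean libraries. The part of B cells or follicular dendritic cells in the level of Cr2 was not tested.

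In all, 6 of the 9 genes (C1qa, C1qb, C1qc, C4b, C3 and Cfp) were higher in every obese library than in any lean one, as were 21.1% of the 17392 genes above 0 FPKM in at least 1 library. Because the 9 were selected on this contrast, nothing is read from that share. Filtering on low values kept 7 of the 9. By level per length, the order C1q chains, Cfp, C3, Cr2, C5ar1, C3ar1 and C4b was the same in each of the 6 libraries. The C1q chains changed places among themselves from library to library, and within each group only their ranges overlapped with those of a neighbour in this order. Across the groups, Cr2 in obese 3 (8.77 FPKM) lay above C3 in each lean library.

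The rest of the complement system was examined with a list of 44 other genes, all of them found in the files. Most were absent or close to it, with 31 of the 44 under the filter and 9 of these listed at 0 in all 6 libraries. The highest single value among the 31 was 4.29 FPKM, for Cd59a in obese 3. Among the 13 tested, 4 rose in obese libraries and none fell (limma, BH-adjusted p under 0.05), against 5.77% of all tested genes that rose and 0.519% that fell. At an unadjusted p under 0.05, 5 lay higher and 1 lower. The median log2 difference of the 13 was 0.20, against 0.10 for all tested genes. The 4 were Fcna, C6, Cfb and C2, of which C2 entered the test only through its level in the obese libraries.

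Fcna encodes ficolin A, a plasma lectin that opens the lectin pathway and that splenic macrophages produce. It stood at 128, 90.9 and 87.5 FPKM in obese 1, 2 and 3, against 29.3, 32.8 and 38.5 FPKM in lean 1, 2 and 3. Its level lay next to that of Cfp, all obese libraries lay above all lean ones, and the log2 difference was 1.57 with an SE of 0.15 (BH-adjusted p = 7.10e-04 with limma). Fcnb, the ficolin of bone marrow myeloid cells and neutrophils, stood at 0.60, 1.50 and 3.18 FPKM in obese 1, 2 and 3, against 4.47, 3.36 and 3.66 FPKM in lean 1, 2 and 3. The lowest lean library was above the highest obese one, in the direction of most neutrophil markers, whose part in this was not tested. Even so, Fcnb did not pass (log2 difference −0.91 with an SE of 0.30, BH-adjusted p = 0.103 with limma). Fcnb was named after its values were seen, and without obese 3 it passed as lower (BH-adjusted p = 0.00955).

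C6, a component of the membrane attack complex, stood at 15.4, 9.80 and 9.27 FPKM in obese 1, 2 and 3, against 2.24, 1.91 and 3.54 FPKM in lean 1, 2 and 3. Its log2 difference was 1.80 with an SE of 0.22 (BH-adjusted p = 0.00215 with limma). Its partners Hc (complement C5), C7, C8a, C8b and C9 reached at most 0.09 FPKM in any library, with C7, C8b and C9 listed at 0 in all. C8g, a lipocalin chain of C8, stood at 0.82 to 1.21 FPKM in obese and 0.89 to 1.67 FPKM in lean libraries and did not pass. Of the membrane attack complex, then, C6 was the only component measured above 2 FPKM in any of these libraries.

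C2 and Cfb, neighbouring genes that encode the catalytic subunits of the C3-cleaving enzymes of the classical and alternative pathways, rose at low levels, both with calls that several alternatives ended. C2 stood at 2.40, 1.70 and 1.14 FPKM in obese 1, 2 and 3, against 0.61, 0.35 and 0.61 FPKM in lean 1, 2 and 3. Its log2 difference was 0.83 with an SE of 0.18 (BH-adjusted p = 0.0283 with limma), but C2 met the filter only through the obese libraries, where it was high, so its call is not independent of the filter. Cfb stood at 3.50, 2.14 and 2.82 FPKM in obese 1, 2 and 3, against 1.15, 1.18 and 1.35 FPKM in lean 1, 2 and 3, and its log2 difference was 0.76 with an SE of 0.15 (BH-adjusted p = 0.0191 with limma). Both had all obese libraries above all lean ones. C2 did not pass without obese 1, obese 2 or any 1 of the lean libraries (limma, BH-adjusted p = 0.0619, 0.0608, 0.0731, 0.11 and 0.0537 in that order). Cfb did not pass without lean 1 (0.0709), lean 2 (0.0741) or lean 2 and obese 3 together (0.111). Without a filter the adjusted p was 0.0715 for C2 and 0.059 for Cfb, and after quantile normalization 0.11 for C2 and 0.092 for Cfb (limma). The proteases that act with C1q and the lectins, C1ra, C1rb, C1s1, C1s2, Masp1 and Masp2, reached at most 0.71 FPKM in any library.

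**Figure D4:**
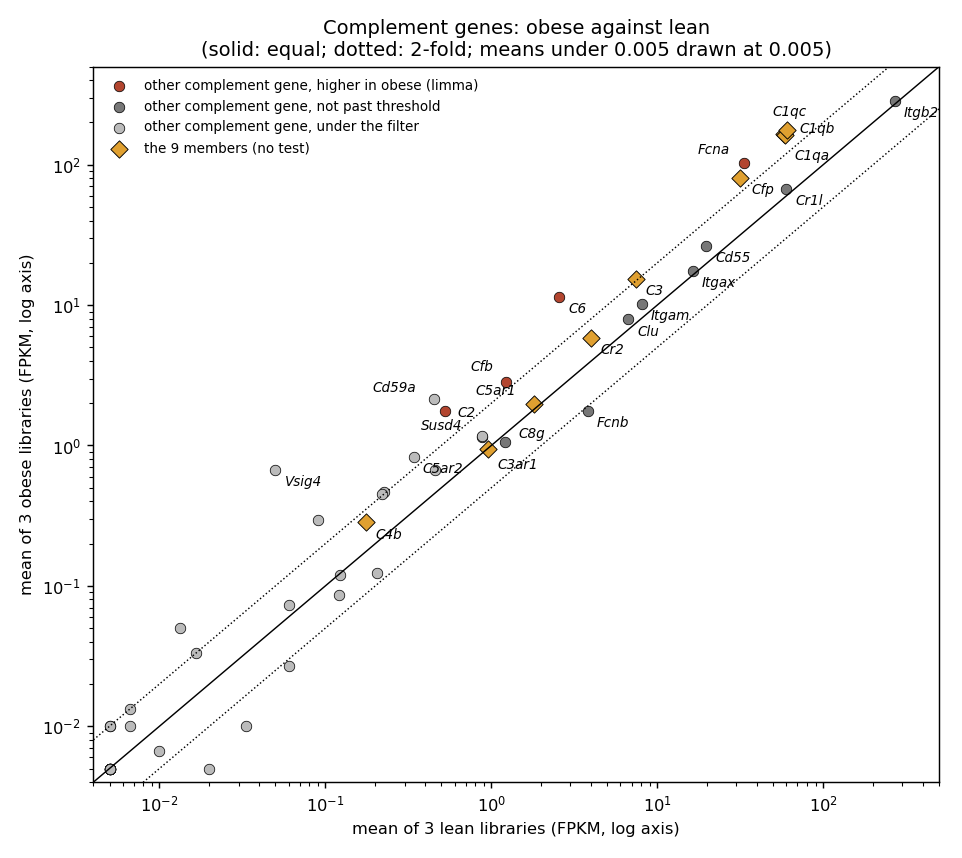
Mean FPKM in obese (vertical) against lean libraries (horizontal) on log axes for the 9 members (diamonds) and 44 other complement genes (circles; red, higher with limma; dark grey, not past the threshold; light grey, under the filter); means under 0.005 FPKM are drawn at 0.005. The C1q chains, Cfp and Fcna stand together above the 2-fold line, while most other complement genes lie at or under 1 FPKM.

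Cr1l and Cd55, membrane regulators that protect host cells, had the highest means of the complement genes apart from C1q, Fcna, Cfp and Itgb2. Most other regulators were low, with 5 of 8 membrane and 7 of 8 fluid-phase regulators under the filter. Cr1l, the rodent membrane regulator Crry, stood at 67.7 ± 3.83 FPKM in obese and 59.8 ± 4.06 FPKM in lean libraries (SD, n = 3 each) and did not pass (BH-adjusted p = 0.205 with limma; log2 difference 0.18). Cd55, the decay-accelerating factor, stood at 24.5, 26.2 and 28.7 FPKM in obese 1, 2 and 3, against 17.8, 22.7 and 18.6 FPKM in lean 1, 2 and 3. Its groups did not overlap, but it did not pass (log2 difference 0.41 with an SE of 0.11, BH-adjusted p = 0.0593 with limma), although it did without lean 2 (BH-adjusted p = 0.0384). Clu, the fluid-phase regulator clusterin, stood at 7.90 ± 1.78 FPKM in obese and 6.69 ± 0.989 FPKM in lean libraries (SD, n = 3 each), and its log2 difference of 0.20 did not pass (BH-adjusted p = 0.449 with limma). Serping1, the inhibitor of the C1 proteases, stood at 0.06 to 0.21 FPKM over the 6 libraries and stayed under the filter.

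Among the other receptors, the integrin chains of complement receptors 3 and 4 did not pass. Itgam stood at 10.2 ± 1.91 FPKM in obese and 8.05 ± 0.501 FPKM in lean libraries (SD, n = 3 each), and its log2 difference of 0.29 did not pass (BH-adjusted p = 0.208 with limma). Itgb2, their shared beta chain, which T cells carry too, stood at 286 ± 21.5 FPKM in obese and 270.7 ± 9.41 FPKM in lean libraries (SD, n = 3 each), and its log2 difference of 0.08 did not pass (BH-adjusted p = 0.563 with limma). Vsig4, a macrophage receptor for C3b, stayed under the filter, with 1.14, 0.26 and 0.62 FPKM in obese 1, 2 and 3, against 0.04, 0.07 and 0.04 FPKM in lean 1, 2 and 3. C5ar2, the other C5a receptor, was also under it, with 0.67 to 0.99 FPKM in obese and 0.32 to 0.36 FPKM in lean libraries. Vsig4 and C5ar2 were named after their values were seen and were not tested.

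The genes most alike in pattern were found by the root mean square distance between log2(FPKM + 1) profiles over the 6 libraries, each centred on its mean, among 7773 tested genes with a mean of at least 5 FPKM. Nearest to the mean of the C1q chains were Gfra2, a receptor of the GDNF family (distance 0.04), Sdc3, a syndecan (0.06), and Axl, a receptor kinase of phagocytes (0.10). Gfra2 stood at 10.1, 9.11 and 7.58 FPKM in obese 1, 2 and 3, against 2.58, 2.60 and 2.41 FPKM in lean 1, 2 and 3. Sdc3 was also nearest to Cfp (0.05), followed by Trf, transferrin (0.08), and Adamdec1, a metalloprotease of macrophages (0.08). Nearest to C3 were Cela1 (0.10), Clec12a (0.12) and Ctsb (0.13), the last a lysosomal protease. Nearest to Cr2 were Scd1, a fatty acid desaturase (0.06), H2-Eb1, an MHC class II chain (0.08), and Tnfrsf13c, the B cell receptor for BAFF (0.09). Tnfrsf13c stood at 17.0, 18.4 and 34.5 FPKM in obese 1, 2 and 3, against 15.0, 21.7 and 15.9 FPKM in lean 1, 2 and 3. The profiles nearly flat on the log2(FPKM + 1) scale had close neighbours of other kinds. These were Golga2, Ap3s2 and Llgl1 for C4b (0.01 to 0.02) and Malsu1, Gimap7 and Tnf for C3ar1 (0.05 each). Among those nearest to C5ar1 were Penk and Trim26 (0.02 and 0.03). C4b lay at 0.11 to 0.30 FPKM, where adding 1 flattens differences. Its log2 difference was 0.13 on this scale and 0.50 with a pseudocount of 0.1.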

How the data were processed

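RNA of 3 obese and 3 lean libraries was analysed from 1 table per library. The authors deposited FPKM values with 2 decimals for 22899 genes. Per the submitters' processing notes, Bowtie and RSEM were used and the builds were GRCm38 and mm10; no version is recorded. The sources used here give no annotation release, strandedness or filter. FPKM is relative to a library's mapped fragments, so a few abundant transcripts can lower all others. Columns summed to 595106 to 630744 FPKM in obese and 616104 to 656303 FPKM in lean libraries. Low values of single-transcript genes were searched for whole-read steps. The best match lay between 17500000 and 20900000 fragments per library. Since the step score (maximum 1) stayed within 0.362 to 0.456, while simulated whole reads scored 0.919 to 0.936, counts were not recovered and the depth is known only roughly.

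Values were transformed to log2(FPKM + 1). Genes that reached 1 FPKM in 3 or more of the 6 libraries (10788) entered limma 3.58.1 under R 4.3.3 (trended eBayes, group as sole term, 2-sided), adjusted over all tested genes by Benjamini-Hochberg (BH) and called under 0.05; the procedure was tested on simulated data. Differences are obese minus lean. Members, lists, motifs and tests were chosen with earlier results of these data known. The genes named outside the members were those past the threshold, in groups with none the 2 with the smallest p, and the 3 nearest profiles; 2 genes that this rule or a list gives are not reported here. Replicate numbers were not taken to pair the libraries. Deviations from the group means correlated at 0.032, 0.0607 and 0.193 in same-numbered pairs, and at −0.17 to 0.16 in the others. With 3 libraries a group, these values cannot decide whether the libraries were paired. Coordinates are RefSeq's for GRCm38.p6. Alternatives were other pseudocounts, filters, scalings and variance models, a replicate block and each library left out. Those added after seeing the data were leaving out lean 2 and obese 3 together, and levels per red pulp macrophage markers alone.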

Additional observations from a re-analysis of the deposited data

How the results depend on the processing

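C1qa, C1qb, C1qc, C3, Cfp and Cr2 kept a positive log2 difference under each of the 13 alternatives run, over ranges of 1.333 to 1.595, 1.28 to 1.55, 1.35 to 1.65, 0.78 to 1.07, 1.17 to 1.43 and 0.14 to 0.61. C1qb was 1.28 after median-of-ratios scaling, and C4b was 0.50 with a pseudocount of 0.1, 0.041 after quantile normalization, 0.20 after TPM scaling and 0.22 after TPM scaling without haemoglobin genes (no immunoglobulin gene was found). After quantile normalization C3ar1 had −0.22 and C5ar1 −0.18, and Clu reversed to −0.016, as did Itgb2 to −0.075 after median-of-ratios scaling.

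With the geometric mean of the macrophage markers, log2 differences per marker were 0.22 for C1qa, 0.17 for C1qb, 0.24 for C1qc, −0.25 for C3, 0.064 for Cfp, −1.30 for C3ar1 and −1.14 for C5ar1, against 0.58, 0.53, 0.60, 0.11, 0.42, −0.94 and −0.78 with their sum.

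The 678 called genes (622 higher, 56 lower) became 368 (344, 24) without a filter, 352 (316, 36) at a minimum of 5 FPKM and 440 (328, 112) after quantile normalization. Median-of-ratios scaling gave 434 higher and 173 lower, and TPM scaling without haemoglobin genes 950 higher. The replicate block gave 1015 called, 866 higher and 149 lower. Leaving out 1 library gave 318 to 698 called (318 without lean 2, 326 without lean 1), 299 to 601 higher and 19 to 97 lower (19 without lean 2, 22 without obese 1, 24 without lean 1, 97 without lean 3). Without lean 2 and obese 3 together, 297 were called, 268 higher and 29 lower. Of the 44 other complement genes, 2 rose at a minimum of 5 FPKM, where C2 and Cfb were no longer tested, and 2 after quantile normalization, where 1 fell. From 2 (without lean 1) to 4 rose and 0 to 1 fell with 1 library left out, and 1 fell without lean 2 and obese 3. C6 and Fcna passed under all 17 alternatives, C2 under 9 of 16 and Cfb under 11 of 16; Cd55 passed under 4 of 17, the replicate block among them. Each value rests on 3 libraries a group, and read depth, known only roughly, limits the genes under 1 FPKM. The causes of these shifts were not tested.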
